A study of Homo sapiens with 9 samples.

Results

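CoCl2 was compared directly with an oxyquinoline derivative (OD) in undifferentiated Caco-2 cells (uCaco-2), a human colorectal adenocarcinoma line with features of enterocytes. Both agents are used as chemical hypoxia mimetics, and the question was how the RNA of cells given a metal salt differs from that of cells given an inhibitor of the oxygen-sensing enzymes. The 6 libraries compared were chosen by the treatment on their labels, 3 with CoCl2 and 3 with OD, and are 6 of the 9 libraries of the series. The other 3 are untreated controls from the same fit. CoCl2 was given at 300 μM and OD 4896-3212 at 5 μM, each for 24 h, and the labels put DMSO, the solvent of OD, at 0.5% in the CoCl2 and control media to match OD. Diluting the labelled 10 mM stock to 5 μM would carry in 0.05% DMSO, so the labelled stock, dose and DMSO share disagree by 10-fold, and the source of this was not tested. Each agent was tested at 1 dose and 1 time, so agent and dose cannot be told apart. All libraries are of 1 cell line in culture, and p-values measure the spread between 3 cultures per condition.

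In cells with enough oxygen, prolyl hydroxylases of the EGLN family mark the α subunits of hypoxia-inducible factors (HIF) for degradation. These enzymes use oxygen, 2-oxoglutarate and an iron ion held in the active site. Cobalt ions can interfere with the iron, whereas compounds such as OD are designed to bind the active site of the hydroxylases, and by either route HIF accumulates and switches on genes of glycolysis, angiogenesis and iron handling. Cobalt is also a reactive metal that binds protein thiols, and cells answer metal and oxidative damage with heat-shock factor 1, the antioxidant regulator NRF2 and the zinc sensor MTF1.

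The CoCl2 libraries held between 16286502 and 24209427 counts, the OD libraries between 16387054 and 19623776, and the controls between 15998136 and 18298190. The identity markers KRT8, KRT18, EPCAM, CDH1, CDH17, CDX2 and VIL1 were present in every library, from 50.9 CPM (counts per 1000000 after scaling by the trimmed mean of M values, TMM) for CDX2 upwards, while KRT20 stayed at or below 5.99 CPM and LGALS4 at or below 2.55 CPM. Of the markers of other cell types, 5 of 8 fibroblast, 2 of 8 immune and 2 of 5 endothelial genes had enough counts to be tested, with summed levels of 101 to 103, 5.45 to 5.79 and 2.20 to 2.79 CPM with CoCl2 and 87.4 to 92.7, 2.50 to 3.22 and 2.61 to 3.13 CPM with OD. PDGFRA, which reached 94.5 CPM, made up most of the fibroblast sum, and COL1A2, DCN, PTPRC and EMCN were not above 3 counts in any library. A library's top 50 genes accounted for 21.7% to 22.4% of its reads under CoCl2 against 16.1% to 16.2% under OD, and TMM factors were 0.770 to 0.795 with CoCl2 against 1.14 to 1.15 with OD. This scaling put the median log2 difference of all 15944 genes tested at −0.05; scaling by library size alone moved it to −0.60, so all differences below are relative to the TMM scale.

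The treatments were far apart. Of 15944 genes tested, 6580 (41.3%) were called between CoCl2 and OD at an adjusted p under 0.05 (edgeR, Benjamini-Hochberg) and a difference of more than 2-fold, 2790 (17.5%) higher with CoCl2 and 3790 (23.8%) higher with OD. The direction of the calls moved with the scaling, since 42.4% of the called genes were higher with CoCl2 under TMM, 35.5% under upper-quartile factors and 18.3% under library size alone. In the same fit, 6891 genes (43.2%) were called between CoCl2 and control, 3167 (19.9%) higher and 3724 (23.4%) lower, and 2113 (13.3%) between OD and control, 1449 (9.09%) higher and 664 (4.16%) lower. The 95% interval of the difference between the treatments lay within 0.5 of 0 on the log2 scale for 2871 genes (18%). The CoCl2 and OD libraries did not overlap for 83.8% of all genes. A single gene compared by an exact permutation test of 3 libraries against 3 cannot go below p = 0.1 (two-sided), so the calls rest on the fit across all genes.

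**Figure D1:**
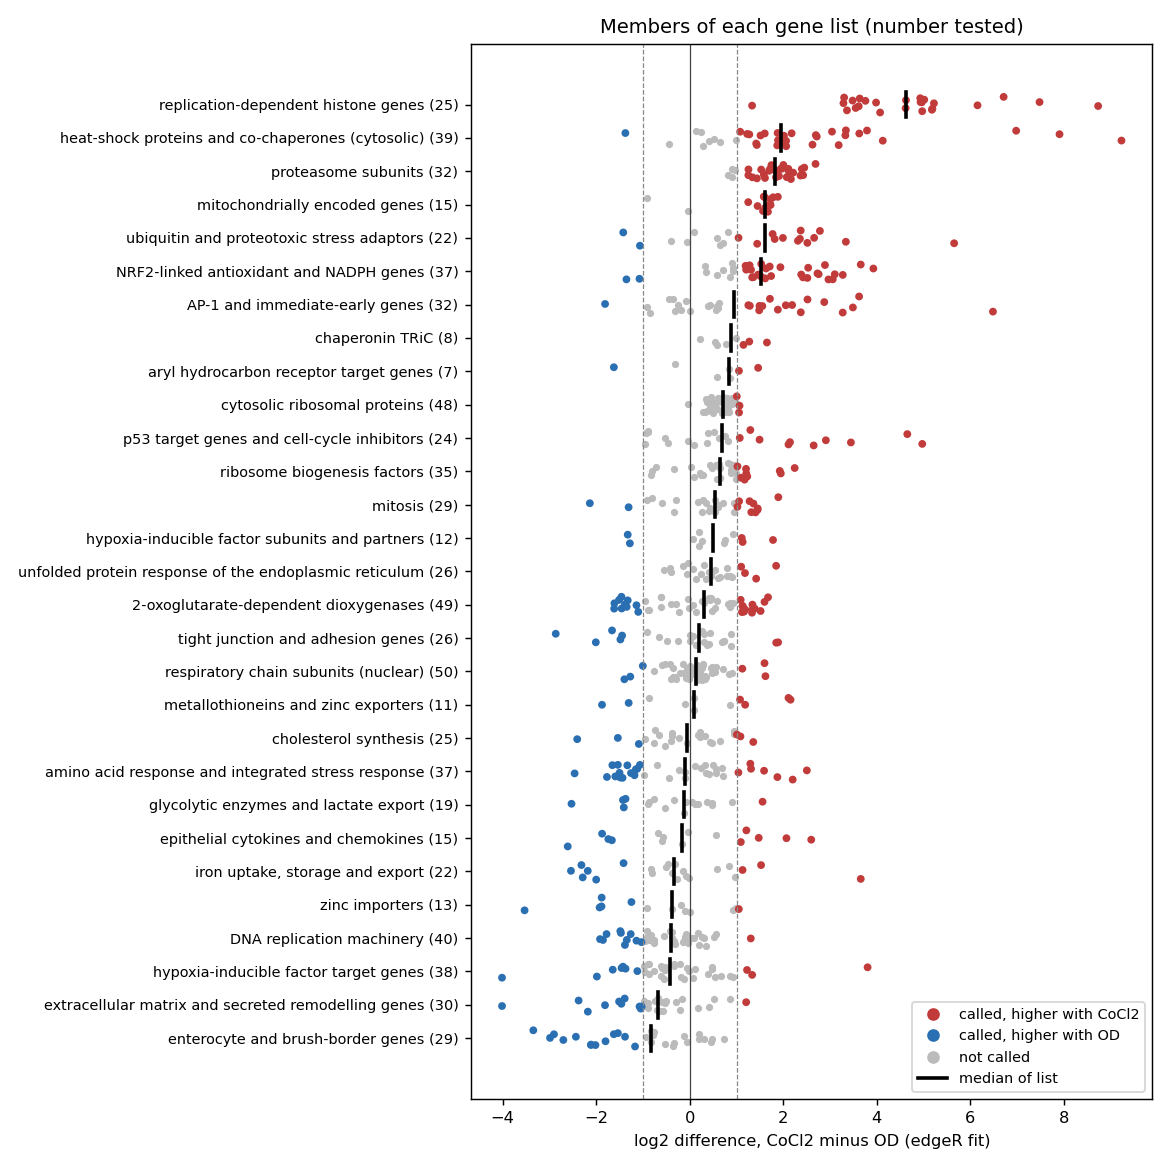
Difference of each tested gene between CoCl2 and OD (x axis, log2, edgeR fit) in 29 gene lists (y axis, number tested in parentheses). Each point is 1 gene, red or blue where called and grey where not, the black bar is the list's median and the dashed lines mark a 2-fold difference. Histone, heat-shock and proteasome genes lay to the right and enterocyte and matrix genes to the left. The histone points are only the 25 of 67 listed genes that passed the count filter, which a gene passes through its higher group. Their median is 3.63 with 6 genes set at lower bounds, which are not drawn.

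Most heat-shock genes tested were higher with CoCl2. These chaperones bind unfolded proteins. The 39 tested heat-shock proteins and co-chaperones were nearly all of the cytosol but HSPD1 and HSPE1 of mitochondria. Of the 39, 30 (76.9%) were higher with CoCl2 and 1 (2.56%) was lower, beside 17.5% and 23.8% of all genes. The other 8 were not called, and the median log2 difference was 1.96. HSPA6, an HSP70 that cells hold nearly silent until stressed, stood at 219, 207 and 211 CPM with CoCl2 and at 0.227, 0.222 and 0.639 CPM with OD. The control libraries held 1 count each, so HSPA6 was at least 1262-fold higher with CoCl2 than in control, and its log2 difference between the treatments was 9.23 ± 0.11 (SE). HSPA1A, the main inducible HSP70, had 5216, 4917 and 4730 CPM with CoCl2 against 19.5, 21.7 and 20.9 CPM with OD, and HSPA1B, a near-identical copy whose reads can be assigned to either gene, had 1556, 1582 and 1458 against 13.4, 12.6 and 10.3 CPM. No CoCl2 library came near an OD library for any of these genes.

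The constitutive chaperones followed at higher levels. HSPA8, the HSP70 of unstressed cells, had 25352, 22894 and 22132 CPM with CoCl2, 2374, 2290 and 2353 CPM with OD and 4085, 3966 and 4136 CPM in control. It was thus 10.0-fold higher with CoCl2 than with OD, and OD lay below control by 0.80 on the log2 scale, a difference that did not reach 2-fold. HSP90AA1, the inducible HSP90, was 9.08-fold higher with CoCl2 (10443, 9751 and 9428 against 1082, 1038 and 1142 CPM), and HSP90AB1, its constitutive partner, 3.70-fold. The nucleotide exchange factor HSPH1 (log2 difference 3.79 ± 0.05), the J-domain proteins DNAJB1 (3.62 ± 0.05) and DNAJA1 (2.62 ± 0.04), the small heat-shock protein CRYAB (4.13 ± 0.15) and the organising co-chaperone STIP1 (1.98 ± 0.04) were all higher with CoCl2. HSPH1 and CHORDC1 were called lower with OD than in control, by 1.11 and 1.23. The list as a whole made up 4.45% to 4.79% of a CoCl2 library, 0.950% to 0.989% of an OD library and 1.59% to 1.61% of a control library. HSPD1, the chaperonin of mitochondria, did not follow: its log2 difference was 0.23 ± 0.04 under TMM and turned to −0.31 under library size alone. DNAJB5 was the member called higher with OD, at 6.04, 5.24 and 4.90 CPM against 2.30, 1.93 and 1.99 CPM with CoCl2. Transcripts of the factors themselves differed less, 0.65 ± 0.05 for HSF1, which was not called, and 1.27 ± 0.07 for HSF2.

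The heat-shock element, read as GAANNTTCNNGAA or TTCNNGAANNTTC on either strand, is the sequence to which heat-shock factors bind. In RefSeq promoters (GRCh38.p14, 250 bases before and 50 after the start site) it was present in 5 of the 33 listed heat-shock genes with a promoter (15.2%), against 0.284% of the 10907 tested genes with one and 0.487% of all 27305 promoters. Stretches that hold it are shown for HSPA6 (chr1:161524430-161524499, plus strand), HSPA8 (chr11:123062167-123062226, minus strand) and CHORDC1 (chr11:90223080-90223139, minus strand), with the element in capitals; in CHORDC1 3 overlapping copies run together. HSPA1A (chr6:31815413-31815472, plus strand) held only the shorter form of 2 units, GAANNTTC or TTCNNGAA, which 13.7% of all promoters carry.
HSPA6: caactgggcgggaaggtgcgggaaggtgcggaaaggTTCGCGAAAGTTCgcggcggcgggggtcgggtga
HSPA8: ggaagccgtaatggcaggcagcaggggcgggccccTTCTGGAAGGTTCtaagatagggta
CHORDC1: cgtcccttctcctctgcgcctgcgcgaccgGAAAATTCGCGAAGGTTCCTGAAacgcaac
HSPA1A: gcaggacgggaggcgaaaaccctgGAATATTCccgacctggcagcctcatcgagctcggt

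Most proteasome genes were also higher with CoCl2. The proteasome degrades proteins tagged with ubiquitin, and 28 (87.5%) of its 32 tested subunits were called higher with CoCl2 than with OD. None was called lower, beside 17.5% higher and 23.8% lower of all genes, and the median was 1.82. ADRM1, a ubiquitin receptor, reached 1015, 996 and 1020 CPM with CoCl2 against 165, 154 and 151 CPM with OD, and the regulatory subunits PSMD2 and PSMD12 were 5.46-fold and 5.37-fold higher. Against control, 26 of the 32 were called higher with CoCl2, beside 19.9% of all genes, and none was called with OD, beside 13.3%. Among 22 ubiquitin and proteotoxic stress genes, 13 (59.1%) were higher with CoCl2 and 2 (9.09%) lower, beside 17.5% and 23.8% of all genes. ZFAND2A, an arsenite-inducible partner of the proteasome, stood at 1246, 1194 and 1080 CPM against 24.4, 22.5 and 23.2 CPM. BAG3, which hands misfolded clients to autophagy, had 640, 593 and 599 CPM against 61.9, 59.0 and 60.3 CPM. VCP, the segregase that extracts ubiquitinated proteins, was 6.88-fold higher with CoCl2 and the autophagy receptor SQSTM1 5.71-fold. WIPI1 and DDI2 were higher with OD, by 2.68-fold and 2.09-fold. The chaperonin TRiC, which folds actin and tubulin, moved less, with 3 of 8 subunits (37.5%) called higher with CoCl2, beside 17.5% of all genes. TCP1 differed the most, at 3.14-fold, and 1 subunit was called under library size alone.

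**Figure D2:**
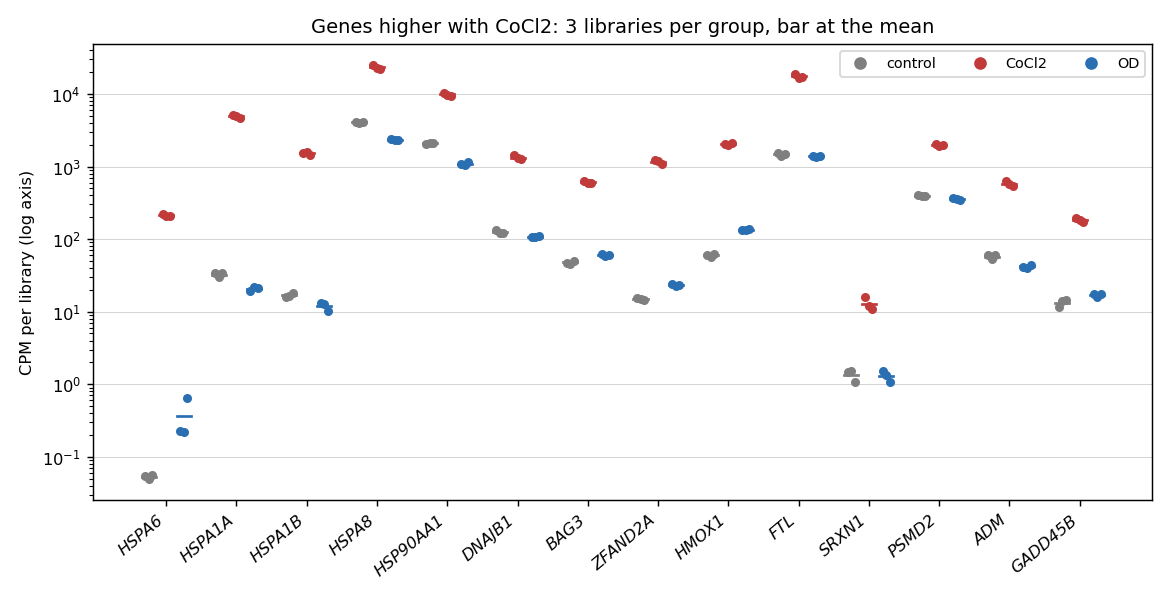
CPM of 14 genes higher with CoCl2 in each library (y axis, log scale), with control in grey, CoCl2 in red and OD in blue, 3 libraries per group and a bar at the mean. Each CoCl2 group lies above its OD group by more than the spread of the libraries, from HSPA6 near 0.36 CPM with OD to HSPA8 at 22132 CPM or more with CoCl2.

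NRF2-linked antioxidant genes formed the next block. Of 37 tested, 27 (73%) were called higher with CoCl2 than with OD and 2 (5.41%) lower, beside 17.5% and 23.8% of all genes. The median of the list was 1.53. Against control, 28 of the 37 were higher with CoCl2 and 8 with OD, beside 19.9% and 9.09% of all genes. HMOX1, which breaks down haem and releases its iron, stood at 2044, 1999 and 2101 CPM with CoCl2, 134, 135 and 136 CPM with OD and 60.4, 57.2 and 62.4 CPM in control. OD therefore raised HMOX1 too, by 1.17 on the log2 scale, and CoCl2 by 5.09. GCLM, the regulatory subunit of the first enzyme of glutathione synthesis, was 7.81-fold higher with CoCl2 than with OD, and its catalytic partner GCLC 3.34-fold. Thioredoxin reductase TXNRD1 was 5.78-fold and glutathione reductase GSR 5.21-fold higher. The small MAF protein MAFG, a partner of NRF2 on DNA, was 8.57-fold higher, and NFE2L2, which encodes NRF2, 2.29-fold. AKR1C1 and AKR1C2, reductases of similar sequence, were 8.32-fold and 6.63-fold higher with CoCl2 and were also called higher with OD than in control, by 1.41 and 1.86. SRXN1, which repairs peroxiredoxins, was 9.65-fold higher at low levels (15.8, 12.1 and 10.8 CPM against 1.54, 1.33 and 1.06 CPM); 90.7% of its exonic bases overlap another annotated gene, which makes its count uncertain. TXNIP, an inhibitor of thioredoxin, and the efflux pump ABCC3 went the other way, 2.11-fold and 2.55-fold higher with OD.

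The antioxidant response element, TGACNNNGC on either strand, was present in 6 of 27 promoters of this list (22.2%) against 15.1% of tested genes and 13.6% of all promoters. It is shown in capitals for TXNRD1 (chr12:104215654-104215713, plus strand) and GCLM (chr1:93909441-93909500, minus strand), where it reads on the opposite strand.
TXNRD1: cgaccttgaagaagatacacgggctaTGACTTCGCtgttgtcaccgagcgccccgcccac
GCLM: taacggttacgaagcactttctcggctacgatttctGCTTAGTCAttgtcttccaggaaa

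Iron genes as a list were called about as often as all genes. Of 22 tested, 3 (13.6%) were called higher with CoCl2 and 6 (27.3%) with OD, beside 17.5% and 23.8% of all genes, with a median of −0.35. FTL, the light chain of ferritin, had 18793, 16880 and 17023 CPM with CoCl2, 1406, 1372 and 1406 CPM with OD and 1535, 1387 and 1494 CPM in control, a 12.6-fold difference between the treatments, while OD differed from control by −0.08 on the log2 scale. FTH1, the heavy chain, was 2.88-fold higher, although 63.2% of its exonic bases overlap other genes. Both ferritin genes are also members of the antioxidant list above. NCOA4, which carries ferritin to the lysosome, was 2.19-fold higher and, like FTH1, fell short of 2-fold under library size alone. The ferrireductases STEAP3 (3.48, 3.95 and 4.56 against 18.1, 18.1 and 18.7 CPM) and STEAP2 were 4.53-fold and 4.88-fold higher with OD, and the duodenal reductase CYBRD1 4.98-fold. The ferroxidase ceruloplasmin, CP, was 5.81-fold higher with OD, at 4.21 to 4.63 CPM, and the mitochondrial iron importer SLC25A37 was also called. Against control the directions differed within this group: CYBRD1 and CP rose with OD, whereas STEAP3 and STEAP1 were called lower with both agents and SLC25A37 and STEAP2 lower with CoCl2 alone. TFRC, the transferrin receptor, was alike, with a log2 difference of −0.13 and a 95% interval of −0.21 to −0.06.

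Metallothioneins bind zinc, copper and cadmium, and 9 of the 20 listed metallothioneins and zinc exporters had too few counts to test. Of the 11 tested, 4 (36.4%) were higher with CoCl2 and 2 (18.2%) with OD, beside 17.5% and 23.8% of all genes. The median of 0.09 turned negative under upper-quartile factors (−0.037) and library size alone (−0.45). MT2A stood at 9.08, 9.21 and 10.9 CPM with CoCl2, 5.40, 5.24 and 3.09 CPM with OD and 1.56, 1.27 and 1.57 CPM in control. Its 2.11-fold difference between the treatments fell to a log2 value of 0.98 without CoCl2 replicate 3 and 0.87 without OD replicate 3, below the 2-fold limit. MT1X was called higher than control with CoCl2 only, with no call between the treatments (0.85 ± 0.21), and MT1F differed by 0.08, with a 95% interval of −0.21 to 0.38. Metallothionein transcripts are short and similar, so their reads may be split among copies. The zinc sensor and its exporter stood out more clearly. MTF1, the factor that switches metallothioneins on, had 79.1, 82.2 and 72.0 CPM with CoCl2 against 18.1, 17.6 and 16.4 CPM with OD, and SLC30A1, which pumps zinc out of the cell, 135, 138 and 130 against 31.9, 31.2 and 30.2 CPM, while OD and control differed by 0.01 for SLC30A1. Among 13 zinc importers, 1 (7.69%) was higher with CoCl2, or 2 without OD replicate 1, and 5 (38.5%) with OD, beside 17.5% and 23.8% of all genes. Those higher with OD were led by SLC39A2 (11.6-fold at 1.78 to 2.13 CPM), SLC39A13 (3.80-fold) and SLC39A4 (3.70-fold).

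MTF1 binds the metal response element, searched as TGCACNC or TGCGCNC on either strand. The element is common: 29.3% of all promoters and 38.5% of those of tested genes hold it, against 6 of 10 of the list. The MT2A promoter (chr16:56608409-56608553, plus strand) holds 5 copies in the stretch shown and the SLC30A1 promoter (chr1:211579182-211579241, minus strand) has 1 in the 60 bases shown and 2 in the whole window.
MT2A: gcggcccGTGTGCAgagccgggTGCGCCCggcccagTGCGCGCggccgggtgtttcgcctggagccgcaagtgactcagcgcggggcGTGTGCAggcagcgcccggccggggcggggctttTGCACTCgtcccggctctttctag
SLC30A1: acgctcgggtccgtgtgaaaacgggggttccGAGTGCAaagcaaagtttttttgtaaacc

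HIF target genes were raised by both agents. Of 38 tested, 29 were called higher than control with CoCl2 and 30 with OD, beside 19.9% and 9.09% of all genes. Neither agent lowered any of the 38, beside 23.4% and 4.16% of all genes. Between the treatments 3 were called higher with CoCl2 and 7 with OD, below the background of 17.5% and 23.8%, with a median of −0.43 and 9 members whose 95% interval lay within 0.5 of 0. BNIP3, a mitophagy receptor, had 223, 207 and 211 CPM with CoCl2, 252, 246 and 241 CPM with OD and a mean of 15.7 CPM in control. VEGFA, the angiogenic growth factor, stood at 280, 278 and 287 against 324, 315 and 323 CPM, and LDHA, which makes lactate, at 2563, 2431 and 2431 against 2702, 2645 and 2719 CPM. These 3 genes were slightly higher with OD, by 0.21, 0.19 and 0.12 on the log2 scale. ANKZF1 (interval −0.15 to 0.03) and the prolyl hydroxylase EGLN1 (−0.07 to 0.21) did not separate the treatments. DDIT4, an inhibitor of mTORC1, had an interval of 0.01 to 0.23, and NDRG1 of 0.38 to 0.56; EGLN1 and DDIT4 changed sign under upper-quartile factors, and all 3 under library size alone.

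**Figure D3:**
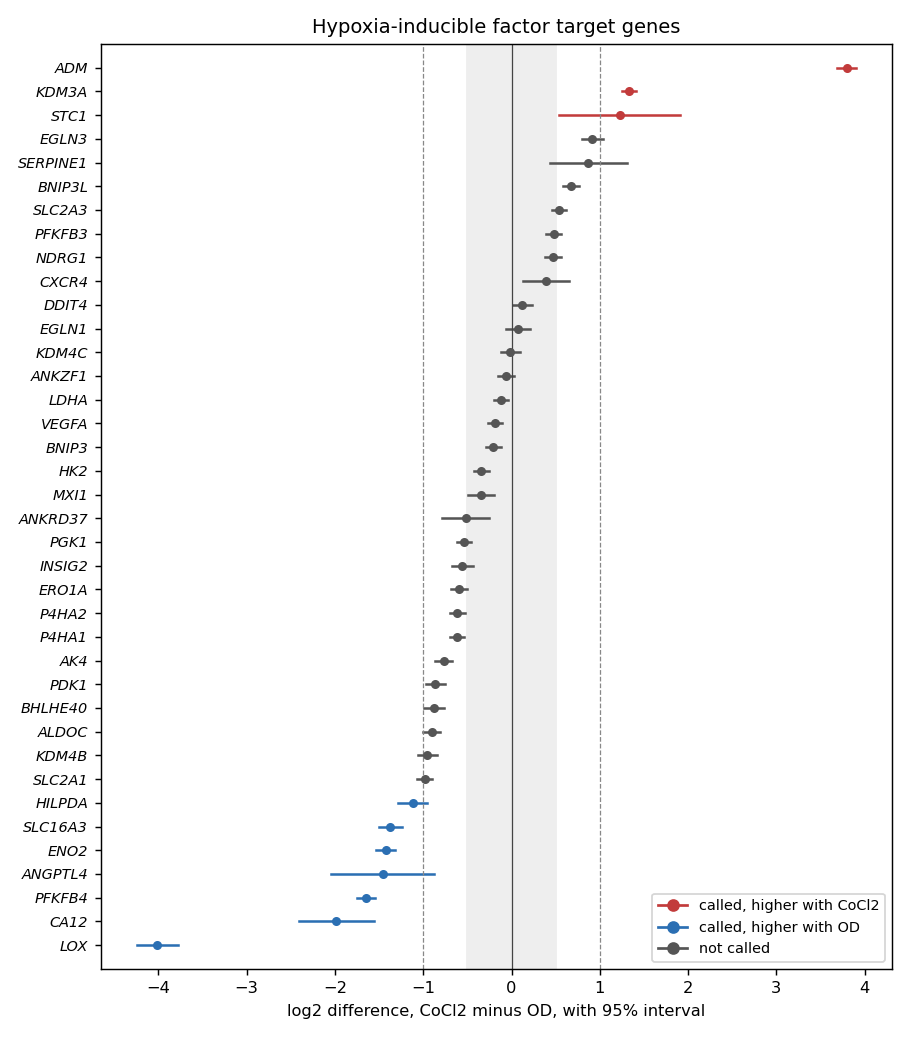
Difference between CoCl2 and OD (x axis, log2) for the 38 tested HIF target genes (y axis), each point with its 95% interval from the edgeR fit, red or blue where called. The grey band marks 0.5 on either side of 0 and the dashed lines a 2-fold difference; LOX stands at −4.01 and ADM at 3.80, with most genes between −1 and 1.

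The targets that separated the agents included the largest differences in the list. LOX, which cross-links collagen, had 1.68, 2.01 and 1.78 CPM with CoCl2, close to the 1.08 to 1.18 CPM of control, and 30.5, 28.7 and 28.7 CPM with OD, 16.1-fold higher. PFKFB4, a regulator of glycolytic flux, stood at 45.0, 44.4 and 44.8 against 139, 141 and 141 CPM, both above the 9.37 to 11.5 CPM of control. ENO2, an enolase, was 2.69-fold higher with OD, the lactate exporter SLC16A3 2.59-fold and the lipase inhibitor ANGPTL4 2.75-fold at a mean of 1.72 CPM. The carbonic anhydrase CA12 reached 4.72, 4.26 and 4.21 CPM with OD and 1.12, 1.78 and 0.629 CPM with CoCl2. SLC2A1, the glucose transporter GLUT1, had 643, 655 and 697 CPM with CoCl2, the level of control (625, 653 and 704), and 1354, 1353 and 1245 CPM with OD; its log2 difference of −0.99 ± 0.04 missed the 2-fold limit and passed it without CoCl2 replicate 3 (−1.02) or OD replicate 3 (−1.03). Under library size alone 19 targets, not 7, were called higher with OD. In the other direction, ADM, the vasodilator adrenomedullin, stood at 633, 571 and 547 CPM with CoCl2, 41.1, 40.4 and 44.3 CPM with OD and 59.9, 52.9 and 59.7 CPM in control, so OD did not raise it. The histone demethylase KDM3A was 2.52-fold higher with CoCl2 and was raised by both agents. STC1 was called higher with CoCl2 at about 1 CPM. Of 12 HIF subunits and partners, CITED2 (3.43-fold), EGLN2 and EP300 were higher with CoCl2 and HIF1AN, the asparaginyl hydroxylase that blunts HIF activity, and HIF3A with OD; the list's median of 0.49 turned to −0.052 under library size alone.

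The core of the hypoxia response element, ACGTG on either strand, was present in 18 of 30 promoters of the HIF targets (60%), against 26.5% of tested genes and 21.6% of all promoters. The LOX promoter (chr5:122078290-122078459, minus strand) holds 4 cores within 170 bases, and ENO2 (chr12:6914430-6914489, plus strand) holds 1, in capitals below. ADM, higher with CoCl2, had no core in its 300-base window, nor had CA12 and SLC16A3, both higher with OD. Among all called genes with a promoter, the core was in 28.6% of those higher with CoCl2 and 22.3% of those lower.
LOX: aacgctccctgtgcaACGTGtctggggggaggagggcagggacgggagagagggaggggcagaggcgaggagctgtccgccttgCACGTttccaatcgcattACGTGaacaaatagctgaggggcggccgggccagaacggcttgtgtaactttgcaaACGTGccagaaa
ENO2: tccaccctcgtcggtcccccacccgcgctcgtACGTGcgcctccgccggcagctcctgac

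Of 19 glycolytic genes, 1 (5.26%) was called higher with CoCl2 and 4 (21.1%) with OD, both below the 17.5% and 23.8% of all genes. Against control, 10 were called higher with CoCl2 and 8 with OD, beside 19.9% and 9.09% of all genes. PFKL, the liver-type phosphofructokinase, had 28.4, 27.8 and 31.3 CPM with CoCl2, 176, 169 and 162 CPM with OD and 113 to 115 CPM in control, so that CoCl2 lowered it by 1.96. HK1, hexokinase 1, was 2.66-fold higher with OD and did not differ 2-fold from control with CoCl2. ALDOA, an aldolase, was 2.94-fold higher with CoCl2, with 54.2% of its exonic bases shared with other annotated genes. CKB, a creatine kinase, was not in any list but among the 6 largest rises in CPM with OD, at 1371, 1336 and 1296 CPM against 292, 288 and 305 CPM with CoCl2 and 259 to 291 CPM in control.

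**Figure D4:**
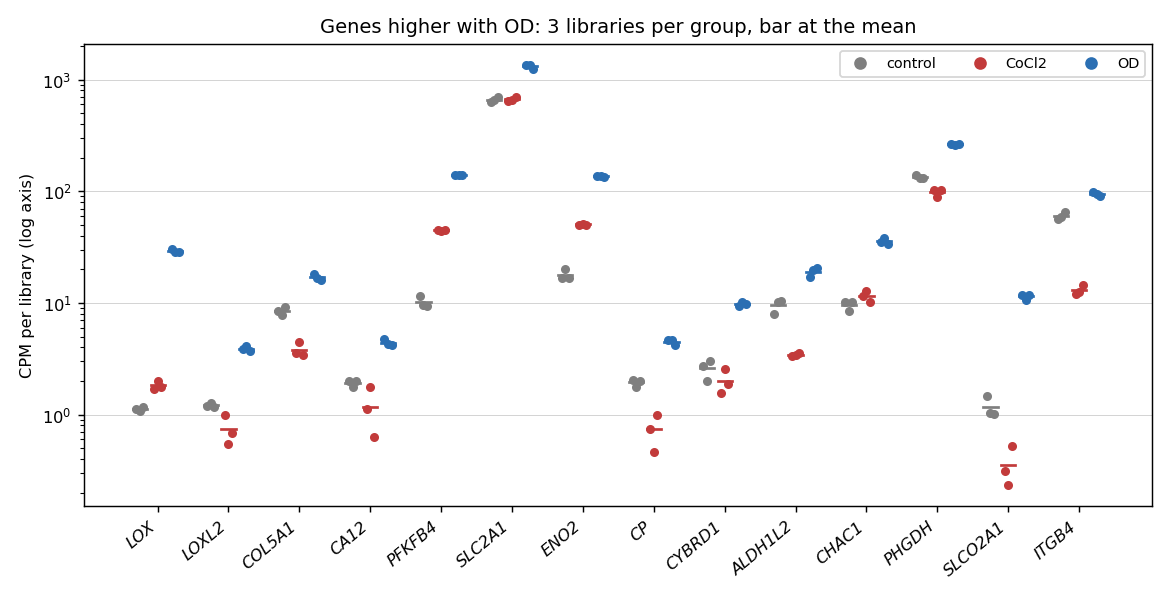
CPM of 14 genes higher with OD in each library (y axis, log scale), with control in grey, CoCl2 in red and OD in blue, 3 libraries per group and a bar at the mean. LOX and SLCO2A1 were near control with CoCl2 or below it and above 10 CPM with OD, while SLC2A1 with CoCl2 sat on the control libraries.

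The prolyl hydroxylases belong to a wider enzyme family. Of 49 tested 2-oxoglutarate-dependent dioxygenases, 13 were called higher with CoCl2 (26.5%) and 10 with OD (20.4%), beside 17.5% and 23.8% of all genes, and the median of 0.30 turned to −0.24 under library size alone, where the counts became 2 and 16. Higher with CoCl2 were, among others, KDM6B, which removes methyl groups from a repressive lysine of histone H3, at 70.0, 65.5 and 65.9 against 21.1, 22.5 and 19.3 CPM, JMJD6 (3.03-fold), JMJD1C (2.86-fold), KDM2A (2.53-fold), KDM5C (2.52-fold) and KDM5B (2.13-fold). Higher with OD were, among others, the collagen prolyl 3-hydroxylases P3H3 (3.05-fold), P3H2 (2.74-fold) and P3H1 (2.20-fold), the phytanoyl-CoA hydroxylase PHYH (3.07-fold), the DNA demethylase TET1 (2.75-fold) and JMJD4 (2.85-fold), which shares 53.8% of its exonic bases with another gene. P3H1 and TET1 were not called against control with either agent, while PHYH, P3H2 and P3H3 were called lower with CoCl2. P4HA1 and P4HA2, the collagen prolyl hydroxylases, and PLOD2, a lysyl hydroxylase, were raised by both agents, by 1.76 to 2.46 with CoCl2 and 2.37 to 3.08 with OD.

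The integrated stress response links amino acid shortage and other stresses to the factor ATF4. Of 37 tested genes, 7 were higher with CoCl2 (4 under library size alone) and 14 with OD, or 18.9% and 37.8%, beside 17.5% and 23.8% of all genes. ATF4 itself differed by 0.36 ± 0.04, which turned to −0.19 under library size alone, and its partners DDIT3 (0.69) and ATF3 (0.56) were not called. PHGDH, PSAT1 and PSPH, the enzymes of serine synthesis in order, were 2.71-fold, 2.80-fold and 2.90-fold higher with OD; PHGDH had 103, 88.4 and 102 CPM with CoCl2, 268, 262 and 267 CPM with OD and 133 to 141 CPM in control. The mitochondrial folate enzymes SHMT2, MTHFD2 and ALDH1L2 were 2.39-fold, 2.27-fold and 5.51-fold higher with OD. CHAC1, which degrades glutathione, stood at 35.4, 38.2 and 33.5 CPM with OD and at 11.4, 12.8 and 10.2 CPM with CoCl2, close to control. ASNS, asparagine synthetase, was 2.52-fold higher with OD at a mean of 3.88 CPM, with 49.3% of its exonic bases shared with other genes. The members higher with CoCl2 were PPP1R15A, which ends the translation block (1161, 1039 and 1037 against 200, 180 and 192 CPM), the amino acid carriers SLC38A2 (log2 difference 2.20), SLC3A2 (3.66-fold) and SLC7A11 (2.48-fold), the cystathionine lyase CTH (3.01-fold), SESN2 (2.45-fold) and GDF15 (2.06-fold). GDF15 missed the 2-fold limit without OD replicate 3 (0.96).

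**Figure D5:**
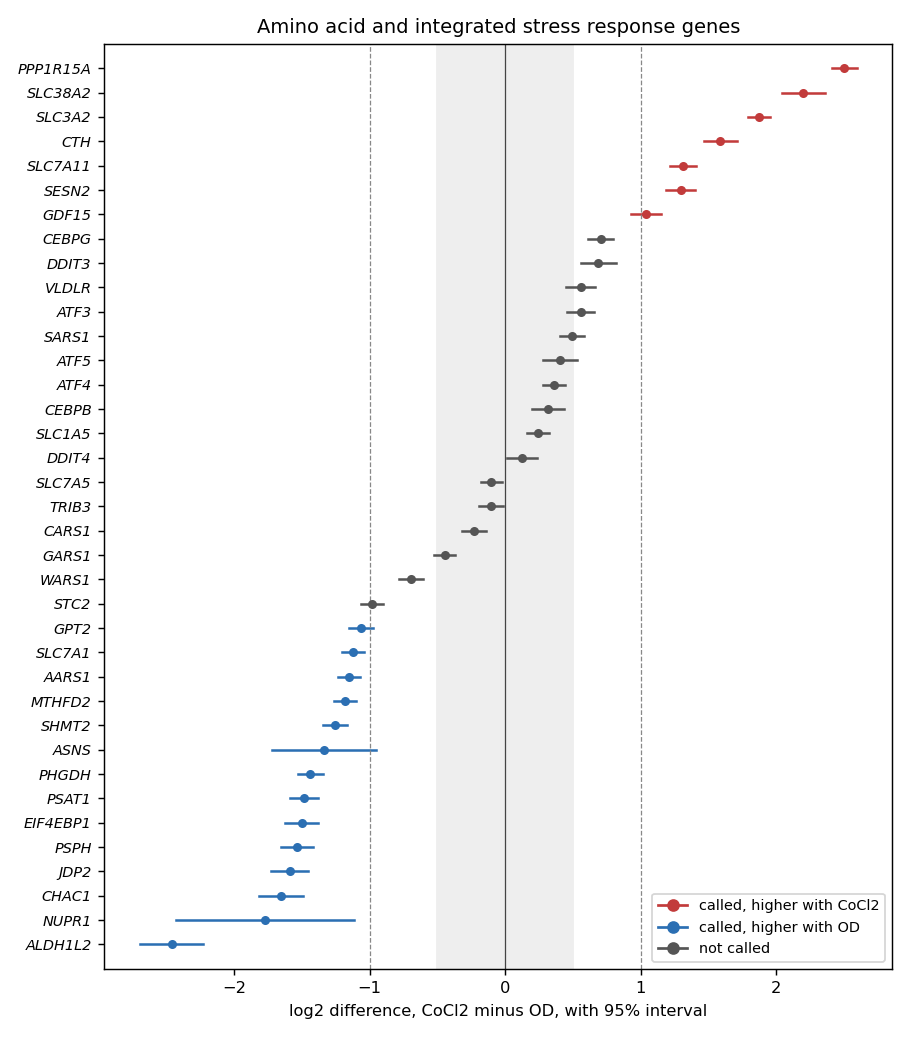
Difference between CoCl2 and OD (x axis, log2) for 37 amino acid and integrated stress response genes (y axis), each with its 95% interval from the edgeR fit, red or blue where called. The list runs from ALDH1L2 at −2.46 to PPP1R15A at 2.50, with 14 genes called on the OD side and 7 on the CoCl2 side.

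The element bound by ATF4 dimers, TGATGNAA on either strand, was present in 7 of 30 promoters of this list (23.3%), against 1.74% of tested genes and 3.67% of all promoters. It is shown in capitals for CHAC1 (chr15:40953236-40953295, plus strand), where it reads on the opposite strand, and ASNS (chr7:97872444-97872503, minus strand), both higher with OD. SLC3A2, higher with CoCl2, and ATF3, not called, also held it. Among all called genes with a promoter, it was in 1.69% of those higher with CoCl2 and 1.45% of those lower.
CHAC1: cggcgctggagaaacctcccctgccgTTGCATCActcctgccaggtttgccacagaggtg
ASNS: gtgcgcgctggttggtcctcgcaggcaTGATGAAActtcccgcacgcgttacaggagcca

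Many replication-dependent histone genes were near 0. Only 25 of the 67 listed had enough counts, and all 25 were called higher with CoCl2 than with OD, with a median of 4.62, or 3.63 with the 6 genes that had at most 3 counts per OD library set at their lower bound. A gene passes the count filter through its higher group, so this count and median describe the tested members only and support nothing about the other 42, which had too few counts. H2BC8, a histone H2B, stood at 23.3, 19.7 and 18.6 CPM with CoCl2, 0.136, 0.311 and 0.106 CPM with OD and 0.539 to 1.23 CPM in control. H2BC12 had 67.1, 63.1 and 60.4 CPM against 1.91, 2.04 and 2.13 CPM, and H2AC6 15.9, 19.3 and 19.0 against 0.817, 0.311 and 0.532 CPM. H1-6 had no count in any OD or control library and was at least 17.7-fold higher with CoCl2 than with OD. Against control, 24 of the 25 were higher with CoCl2 and 18 were called lower and 7 not called with OD. The libraries were made from polyadenylated RNA, and these histone transcripts normally end in a stem-loop without a poly(A) tail, so more transcript and more polyadenylated transcript cannot be told apart.

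Among cell-cycle genes, CDKN1C, an inhibitor of cyclin-dependent kinases, had 100.3, 106 and 88.9 CPM with CoCl2 and 3.54, 2.89 and 2.93 CPM with OD, and the growth-arrest genes GADD45G and GADD45B were 25.1-fold and 10.9-fold higher with CoCl2. Of 24 p53 targets and cell-cycle inhibitors, 10 (41.7%) were higher with CoCl2, beside 17.5% of all genes, and none lower, against 6 lower under library size alone. CDKN1A, named after its values were seen, rose with both agents, from 3.60 to 4.38 CPM in control to 134 to 142 CPM with CoCl2 and 29.1 to 35.4 CPM with OD. Of 40 replication genes, 10 (25%) were higher with OD, close to the 23.8% of all genes, and ORC1 alone (2.5%) with CoCl2. Those higher with OD included the thymidylate synthase TYMS (49.5, 50.2 and 53.5 against 14.4, 13.2 and 12.9 CPM). TYMS was called lower than control with CoCl2 and not called with OD, and 47.9% of its exonic bases overlap another gene. Of 29 mitosis genes, 9 (31%) were higher with CoCl2 and 2 (6.9%) with OD, beside 17.5% and 23.8% of all genes. Under library size alone 1 was higher with CoCl2, and the median of 0.54 turned to −0.0080. CDC20, an activator of the anaphase-promoting complex, had 199, 191 and 202 CPM with CoCl2 and 156, 154 and 156 CPM in control but 56.2, 53.4 and 49.5 CPM with OD. Against control, 11 mitosis genes were called lower with OD and 6 with CoCl2, beside 4.16% and 23.4% of all genes.

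Transcripts of the mitochondrial genome also parted. Of 15 tested, 13 (86.7%) were higher with CoCl2 and none lower, beside 17.5% and 23.8% of all genes, with a median of 1.62. MT-ND4, a subunit of complex I, stood at 14803, 13306 and 13890 CPM with CoCl2, 4619, 4534 and 4537 CPM with OD and 8658 to 8905 CPM in control, which lay between the agents. MT-CO3, MT-ND3 and MT-ND6 were called lower with OD than in control, by 1.36, 1.31 and 1.15. The ribosomal RNAs did otherwise: MT-RNR1 had 1967, 1997 and 1998 CPM with OD against 1098, 1009 and 1036 CPM with CoCl2, and MT-RNR2, named after its values were seen, did not separate the agents (interval −0.13 to 0.03). The 50 nuclear subunits of the respiratory chain were mostly alike, with 3 (6%) called each way, beside 17.5% and 23.8% of all genes. For 30 of the 50 the interval lay within 0.5 of 0, beside 18% of all genes. The median of these subunits, 0.14, turned to −0.41 under library size alone.

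Immediate-early genes were higher with CoCl2 in 16 of 32 cases (50%), beside 17.5% of all genes, and with OD in 1, DUSP8, a phosphatase of MAP kinases. The count on the OD side was 2 without CoCl2 replicate 1, CoCl2 replicate 2 or OD replicate 1. FOSB, a subunit of the factor AP-1, had 38.1, 34.2 and 30.7 CPM with CoCl2, 2.86, 3.28 and 2.98 CPM with OD and 0.753 to 0.833 CPM in control, and FOSL1 was 12.3-fold higher with CoCl2. ARC, with at most 2 counts in any OD library, was at least 47.4-fold higher. CCN2, a matricellular growth factor, reached 505, 479 and 431 CPM against 7.72, 7.01 and 7.99 CPM. Among 15 epithelial cytokines and related genes, 5 (33.3%) were higher with CoCl2 and 4 (26.7%) with OD, beside 17.5% and 23.8% of all genes. CXCL8 (2.55, 1.47 and 1.26 against 0.272, 0.399 and 0.160 CPM) and IL1A were low in all groups, and CCL26, the chemokine eotaxin-3, which stands outside the list, reached 19.7, 22.6 and 16.9 CPM with CoCl2. BIRC3, an inhibitor of apoptosis induced by NF-κB, was 6.10-fold higher with OD, and the mucosal chemokine CCL28 3.66-fold, both above control with OD.

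A share of the enterocyte genes was lower with CoCl2. Of 29 tested, none was called higher with CoCl2, 13 were higher with OD (44.8%), beside 23.8% of all genes, and 16 were not called, with a median of −0.84. VIL1, the microvillus protein villin and an identity marker of the line, had 109, 108 and 119 CPM with CoCl2, 458, 445 and 460 CPM with OD and 596 to 632 CPM in control; 44.2% of its exonic bases overlap another gene. FABP1, a fatty acid carrier, stood at 5.29, 4.80 and 5.30 against 42.1, 37.5 and 43.3 CPM, and SLC15A1, the intestinal peptide transporter, at 4.91, 3.87 and 4.25 against 32.7, 34.4 and 30.7 CPM, where OD also exceeded the 9.20 to 9.93 CPM of control. GATA4, a factor of the proximal intestine, had 0, 3 and 3 counts with CoCl2 and was at least 5.78-fold higher with OD. HNF4A, the nuclear receptor that governs much of this programme, was named after its values were seen and did not separate the agents (interval −0.13 to 0.03). In bulk RNA, fewer cells of a kind and less RNA per cell cannot be told apart.

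Of 30 extracellular matrix genes, 10 (33.3%) were called higher with OD, beside 23.8% of all genes, and 1, LAMB3, with CoCl2 (3.33%). Fibroblast markers divided: of 5 tested, 3 were called higher with OD and 1, COL3A1, with CoCl2 (7.59 to 9.60 against 3.81 to 3.94 CPM). COL3A1 lost its call without CoCl2 replicate 2 (0.997). PDGFRA, not called, was also higher with CoCl2, at 80.3 to 83.0 against 55.4 to 59.3 CPM. COL1A1 stood at 9.33 to 10.9 CPM with CoCl2 and 21.0 to 22.4 CPM with OD, and PDGFRB at 0.619 to 1.18 and 5.59 to 6.12 CPM, while COL1A2, DCN and THY1 had at most 2 counts in any library; their part in the matrix result was not tested. Beside LOX, LOXL2, another collagen cross-linker, was 5.19-fold higher with OD and collagen V, COL5A1, 4.53-fold (18.0, 16.8 and 16.1 against 3.55, 4.49 and 3.41 CPM). FN1, fibronectin, was the largest rise with OD in CPM, 16769, 16218 and 16113 against 10436, 9856 and 11083 CPM, yet its 1.56-fold difference was not a call. Of 26 junction and adhesion genes, 5 (19.2%) were higher with OD and 2 (7.69%) with CoCl2, both under the 23.8% and 17.5% of all genes. ITGB4, the β4 integrin of hemidesmosomes, had 11.9, 12.5 and 14.4 CPM with CoCl2, 99.5, 94.6 and 90.6 CPM with OD and 56.3 to 64.7 CPM in control. The claudins divided, CLDN3 4.02-fold higher with OD, and CLDN4 and CLDN15 3.60-fold and 3.70-fold higher with CoCl2. The median of this list, 0.20, turned to −0.35 under library size alone.

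Among 26 genes of the unfolded protein response of the endoplasmic reticulum, 4 (15.4%) were higher with CoCl2 and none lower. This share was below the 17.5% of all genes called higher with CoCl2. The chaperone HSPA5 led them (4090, 3797 and 3481 against 1063, 1037 and 1062 CPM). The list's median of 0.45 turned to −0.094 under library size alone. Cholesterol synthesis had 3 of 25 (12%) called each way, below the 17.5% and 23.8% of all genes, with TM7SF2, a sterol reductase, 5.30-fold higher with OD. HMGCS1, called higher with CoCl2, lost its call without control replicate 1 (0.993), CoCl2 replicate 1 (0.962), OD replicate 1 (0.987) or OD replicate 2 (0.998). Of 48 ribosomal proteins, 3 (6.25%) were called higher with CoCl2, none under library size alone, although the median was 0.70. Of 35 ribosome biogenesis factors, 9 (25.7%) were higher with CoCl2 (3 under library size alone), beside 17.5% of all genes, among them RRP12 (272, 277 and 290 against 76.1, 70.6 and 70.9 CPM). Among 7 tested targets of the aryl hydrocarbon receptor, NQO1 and UGT1A6 were higher with CoCl2 and CYP1B1 with OD; UGT1A6 shares 64.7% of its exonic bases with related genes and lost its call without CoCl2 replicate 1 (0.95) or OD replicate 2 (0.97).

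The most separated single genes outside these groups were few in kind. With CoCl2, 3 transcripts that were all but absent elsewhere appeared: the long non-coding RNAs CDKN2A-DT (10.6, 10.4 and 9.39 CPM, no count in the other groups, at least 63.4-fold) and LINC02757 (71.6, 58.7 and 57.7 CPM, at least 392-fold), and AL606500.1 (at least 84.8-fold). In GENCODE 44 on GRCh38, CDKN2A-DT lies at chr9:21966929-21967751 and LINC02757 at chr11:76607853-76630465. SNORD14E, a small nucleolar RNA, was 37.8-fold higher with CoCl2 and lies inside HSPA8. DHRS2, a short-chain dehydrogenase, had 48.8, 48.1 and 42.3 CPM with CoCl2, 0.727, 0.577 and 0.692 CPM with OD and 7.24 to 9.41 CPM in control, so the agents moved it in opposite directions. With OD, TNNI2, a troponin subunit, stood at 19.9, 17.3 and 16.4 CPM against 0.373, 0.310 and 0.472 CPM, and the prostaglandin carrier SLCO2A1 at 11.8, 10.7 and 11.8 against 0.311, 0.232 and 0.524 CPM. Both genes, with SYT8, AFAP1L2 and the ephrin EFNB3, were called higher than control with OD and lower with CoCl2. LGI4, a secreted protein, was 39.0-fold higher with OD and not called with CoCl2 against control. NEURL1B, FBN3, FNDC10, SLC6A4, DISP2 and AC124067.4, 15.0-fold to 24.3-fold higher with OD, were called lower than control with CoCl2 and not called with OD, so for these genes the difference lay on the side of CoCl2.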

How the data were processed

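RNA of 9 uCaco-2 cultures was sequenced as TruSeq Stranded mRNA libraries, single-end, 75 nucleotides. Per the labels and the study's methods, the authors assessed reads with FastQC 0.11.9, trimmed them with cutadapt 2.10, mapped them to GRCh38.p13 with STAR 2.7.5b and deposited raw counts per gene symbol on GENCODE 34; the counting tool and its strand setting are not given in the sources used here. The table held 60591 symbols, 24486 of them without a count.

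The deposited counts were fitted with edgeR 4.0.16 in R 4.3.3: filterByExpr (minimum count 10), TMM factors, 1 mean per condition over all 9 libraries, robust quasi-likelihood tests and Benjamini-Hochberg adjustment over 15944 genes. Calls required a log2 difference beyond 1 together with an adjusted p under 0.05. Errors are standard errors derived from the fit, the size of the log2 difference divided by the square root of its F statistic. Intervals are 95% and use these errors. Both can be too small where a group has few counts. Fold changes against a group with at most 3 counts per library are lower bounds at 3 counts. These errors cover counts and replicate spread only. Scripts were tested on simulated data. The gene lists and the members named were chosen with earlier results of these data known. Genes named were the 12 largest differences each way among called genes of at least 10 CPM whose libraries did not overlap, the 6 largest differences in CPM each way, 3 called members of each list each way, 5 genes each way called in opposite directions against control (at least 10 CPM), and members of the heat-shock, antioxidant, iron, metal, hypoxia, dioxygenase and integrated stress lists. Locations and overlaps were read from GENCODE 44, promoters from RefSeq, GRCh38.p14, matched by symbol for 10907 of 15944 genes. Replicate numbers did not pair CoCl2 with OD libraries (correlation of deviations 0.00404, 0.0352 and 0.006 for equal numbers). In total 13 alternatives were run, with DESeq2 1.42.0 among them. Some genes of the lists are not reported here by name.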

Additional observations from a re-analysis of the deposited data

How the results depend on the processing

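With 6580 genes called in all, 2790 higher and 3790 lower with CoCl2, an adjusted p alone, with no limit on size, gave 13311, 6416 and 6895. Library size alone gave 1351 higher and 6026 lower, and a minimum of 10 counts in every library, which removes genes near 0 in either group, gave 1827 higher. Leaving out each library in turn gave 6572 to 6917 called genes. The fit with the replicate number as a block called 6568 genes, 6539 of them shared, and changed no call among the 250 genes followed. DESeq2 called 7274 genes on the 6 libraries and 7356 on 9. Of the 250 genes followed, 166 kept their call under every alternative in which they were tested. Genes near 0 were not tested under the minimum of 10 counts in every library, where 207 kept their call. Under library size alone 42 calls were lost and 12 gained, and medians turned negative for the 2-oxoglutarate dioxygenases (−0.24), HIF subunits (−0.052), metallothioneins and zinc exporters (−0.45), mitosis (−0.0080), respiratory chain (−0.41), junction genes (−0.35) and the unfolded protein response (−0.094). The same setting reversed HSPD1 (−0.31), MT1F (−0.46), EGLN1 (−0.47), DDIT4 (−0.42), NDRG1 (−0.075) and ATF4 (−0.19). Upper-quartile factors reversed the metallothionein median (−0.037), MT1F (−0.050), EGLN1 (−0.059) and DDIT4 (−0.0092). With 1 library left out in turn, MT1F ran from −0.054 (without CoCl2 replicate 3) to 0.18 and EGLN1 from −0.0091 (without OD replicate 3) to 0.11. Library size alone does not correct for the share taken by the most abundant genes; which scaling is nearer to RNA per cell was not tested.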

Other observations

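Some listed genes had too few counts for a test and are given as counts. CA9, a carbonic anhydrase that HIF induces, had 10, 16 and 10 counts with OD, 2, 2 and 5 with CoCl2 and 0, 1 and 0 in control. EPO, the hormone of red cell formation, had 0, 1 and 1 counts with CoCl2, 5, 3 and 5 with OD and 9, 2 and 5 in control. The metallothionein MT1A had 10, 17 and 8 counts with OD against 2, 0 and 5 with CoCl2, the opposite side to MT2A. BBOX1, a dioxygenase of carnitine synthesis, had 12, 4 and 12 counts with CoCl2 and none in the OD and control libraries. At these depths such counts cannot carry a comparison.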
